A study of Mus musculus with 4 samples.

Results

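The genes described here are 35 markers of digestion and absorption in enterocytes, the absorptive cells of the intestinal lining, read in sorted intestinal stem cells of mice with and without the type I interferon receptor. They are 11 brush-border enzymes, 2 genes of epithelial structure, 10 genes of lipid handling, 6 transporters, 2 genes of cytosolic and drug metabolism and 4 transcription regulators, listed by name and not by their values. All 35 had a probe on the array, and 32 were bright enough to be tested among 24866 genes in all.

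Stem cells with high Lgr5 were sorted by flow cytometry from control mice, which carried the Lgr5-EGFP-Ires-CreERT2 knock-in (Lgr5ki), and from Ifnar1-/-:Lgr5ki mice, which carried the same knock-in and lacked Ifnar1, which encodes a subunit of the type I interferon receptor. All mice were given poly(I:C), a double-stranded RNA mimic that triggers interferon release, at 2 mg/kg of body weight by intraperitoneal injection each day for 1 week; treatment therefore did not differ between the groups, and no untreated mice are analysed here. Each group had 2 samples, each on its own single-colour Agilent mouse array; control 1 and knockout 1 shared slide 1, and control 2 and knockout 2 shared slide 2. The labels give no age and do not say that the samples came from separate animals, so p-values reflect only sample-to-sample spread that may be technical. The labels name no cell type to which the loss of Ifnar1 was restricted, and 4 arrays limit the precision of all that follows.

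Enterocytes arise from Lgr5-positive stem cells at the crypt base and mature as they move up the villus. On their apical membrane, the brush border, anchored hydrolases cut sugars and peptides, transporters carry the products into the cell, and absorbed fat is rebuilt into triglyceride and packed with apolipoproteins into chylomicrons. HNF4A, CDX1, CDX2 and GATA4 are transcription factors that drive this programme. They are made already in crypt stem cells, whereas most of the enzymes and transporters accumulate as cells mature.

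Levels are given as log2 of the background-corrected signal minus the array's own 75th percentile, so 0 is the level of a probe at that percentile, and a difference is knockout minus control on that scale. Levels of different genes come from different probes and are not set against each other. Ifnar1, the targeted gene, averaged -0.29 ± 0.11 in control samples and -2.02 ± 0.37 in knockout samples (mean ± SD, n = 2), a difference that passed limma's test with the slide as a block (Benjamini-Hochberg adjusted p = 0.0496) and did not without it (adjusted p = 0.478). Its 3 probes differed by -1.66 to -1.93, and the labels do not say whether these probes lie in the deleted sequence. Lgr5, which marks the sorted cells, was at 2.93 ± 0.16 and 3.13 ± 0.28. Well above background were 63.3% to 67.7% of the spots of an array, and 0 spots were saturated. With limma and no slide term, 0 of 24866 genes passed an adjusted p of 0.05 in either direction, while 258 genes were higher and 427 lower at an unadjusted p of 0.05. With the slide as a block 8 genes were higher and 82 lower in the knockout.

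No change of the digestive and absorptive genes was detectable with these 4 arrays. Of the 32 tested, 0 were called higher and 0 lower without the slide term, where 0% of all genes were called in either direction. With the slide as a block, again 0 were called, where 0.0322% of all genes were called higher and 0.33% lower. The median difference over the 32 genes was 0.12, beside 0.02 over all genes tested, and single differences ran from -0.90 for Anpep to 1.14 for Alpi. Of the 32, 22 lay above 0 and 10 below, beside 13483 above and 11383 below among all genes tested. Asking for signal well above background on all 4 arrays left out Lct, and 21 of 31 genes then lay above 0. Without any filter on dim probes, 25 of the 35 genes (71.4%) lay above 0, beside 52.3% of all genes, and the median was 0.13.

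At an unadjusted p of 0.05, the fit without the slide term put Alpi and Apoa4 higher, which is 2 of 32 genes beside 1.04% of all genes, and Anpep lower, 1 of 32 beside 1.72%. With the slide as a block, the higher genes at that level were Alpi, Apoa4, Khk, Krt20 and Npc1l1, 5 of 32 beside 7.31% of all genes, and the lower gene was again Anpep, 1 of 32 beside 4.93%. The smallest adjusted p of the 32 genes in the block fit was 0.176, for Khk. The 95% confidence interval lay wholly within 1 log2 unit of 0 for 15 of the 32 genes without the slide term (54.8% of all genes) and for 25 with it (77.9% of all genes), so a change of more than 2-fold fell outside those intervals; for the other genes it did not.

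**Figure D1:**
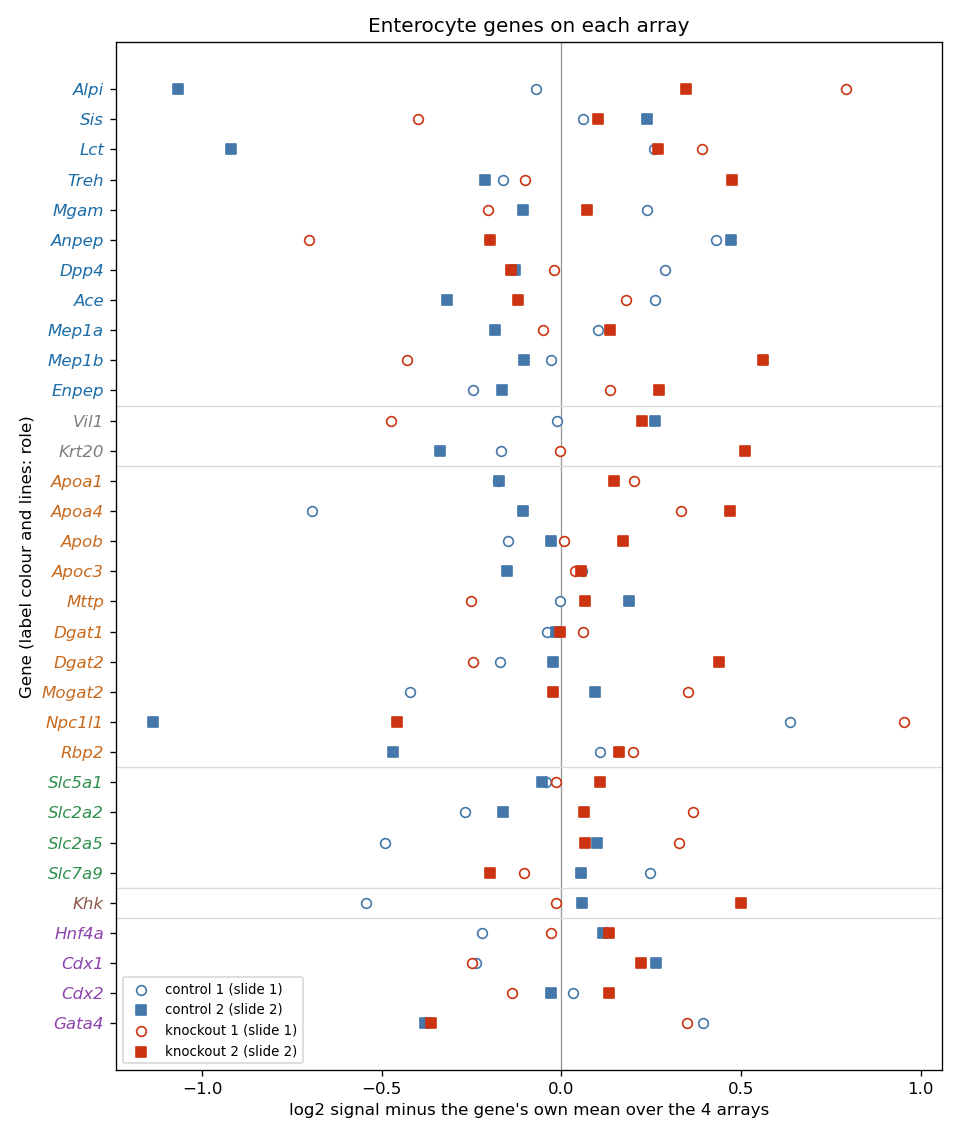
Level of each of the 32 tested genes on each array, as log2 signal minus that gene's own mean over the 4 arrays (horizontal axis), with 1 line per gene ordered by role. Blue marks control and red knockout, open circles slide 1 and filled squares slide 2. The knockout arrays lie right of both control arrays for 12 genes, among them Alpi and Apoa4, beside 14.5% of all genes. They lie left of both for Anpep and Slc7a9, beside 11.5% of all genes. Lct, 1 of the 12, entered the test only through the knockout.

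The brush-border enzymes had a median difference of 0.08, with 7 of 11 above 0. On slide 1 the median was -0.15 and on slide 2 it was 0.32; without control 2 it was -0.06. The enzymes at both ends of the range were Alpi and Anpep. Their promoters are shown because these differed most in opposite directions. The windows run from 250 bases before to 50 after the annotated start in RefSeq's GRCm38.p6, 5′ to 3′ on the gene's strand, and capitals mark matches to any of the 5 motifs described further on.

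Alpi promoter (chr1:87101557-87101856, minus strand): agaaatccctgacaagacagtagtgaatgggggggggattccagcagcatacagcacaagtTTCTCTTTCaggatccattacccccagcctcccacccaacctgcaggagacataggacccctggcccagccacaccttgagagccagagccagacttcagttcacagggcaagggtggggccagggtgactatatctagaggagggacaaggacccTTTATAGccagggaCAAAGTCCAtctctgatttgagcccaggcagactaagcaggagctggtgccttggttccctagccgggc

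Anpep promoter (chr7:79848161-79848460, minus strand): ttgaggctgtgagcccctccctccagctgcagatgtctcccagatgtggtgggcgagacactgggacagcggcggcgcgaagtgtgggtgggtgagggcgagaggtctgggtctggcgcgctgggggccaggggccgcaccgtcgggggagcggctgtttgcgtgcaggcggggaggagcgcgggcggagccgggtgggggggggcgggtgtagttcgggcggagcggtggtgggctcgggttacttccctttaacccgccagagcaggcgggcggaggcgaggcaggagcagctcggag

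The Alpi window held 3 matches: TTCTCTTTC to the interferon response letters on the opposite strand, TTTATAG to the CDX letters and CAAAGTCCA to the HNF4 letters. The Anpep window held 0 matches to any of the 5 motifs.

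Alpi encodes intestinal alkaline phosphatase, an enzyme of the mature enterocyte surface that detoxifies bacterial lipopolysaccharide. Its level was -2.37 in control 1, -3.37 in control 2, -1.51 in knockout 1 and -1.95 in knockout 2. Both knockout arrays lay above both control arrays, and control 2 was the lowest array. The difference was 1.14 ± 0.44 (SE; 95% interval 0.04 to 2.23), or 2.20-fold, and did not pass the test (limma adjusted p = 1.00 without the slide term, 0.250 with it). The difference was 0.64 without control 2 and 0.53 after normexp background correction. That correction adds an offset of 50 to the signal. Here and below, the offset draws differences of dim probes toward 0 by construction.

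Anpep encodes aminopeptidase N, which trims single amino acids from the ends of peptides. Its level was 0.25 in control 1, 0.29 in control 2, -0.88 in knockout 1 and -0.38 in knockout 2. The control arrays lay close together and both knockout arrays below them. The difference was -0.90 ± 0.26 (SE; 95% interval -1.55 to -0.25), 1.87-fold lower in the knockout, and was -1.13 on slide 1 and -0.67 on slide 2. It did not pass the test (limma adjusted p = 0.179 with the slide as a block).

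Mgam, the maltase-glucoamylase that releases glucose from starch fragments, had one of the 3 brightest probes of the set. It was at 3.66 and 3.31 in the control and at 3.22 and 3.49 in the knockout. The groups overlapped, the difference was -0.13 (95% interval -0.68 to 0.41), and its second probe lay on the same side at -0.24. Among the other disaccharidases, sucrase-isomaltase (Sis) differed by -0.30, trehalase (Treh) by 0.37 and lactase (Lct) by 0.66. Treh and Lct had both knockout arrays above both controls and Sis overlapped. The difference of Treh was 0.66 without knockout 1 and 0.09 without knockout 2. The control arrays of Lct were at -4.19 and -5.36, of which 1 was well above background, and the knockout arrays at -4.05 and -4.18, so Lct entered the test only through the knockout and its difference was 0.07 without control 2.

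The peptidases other than Anpep were spread around 0. Dipeptidyl peptidase 4 (Dpp4) differed by -0.16, angiotensin-converting enzyme (Ace) by 0.06, and the meprin subunits Mep1a and Mep1b by 0.08 and 0.13. Glutamyl aminopeptidase (Enpep) differed by 0.41, with the control arrays at -3.68 and -3.60 below the knockout arrays at -3.30 and -3.16. Enpep was the only one of these 5 whose groups did not overlap, and after normexp correction, which bears most on dim probes, its difference was 0.12. Mep1b was the most uneven of them between arrays, at 0.42 in knockout 1 and 1.41 in knockout 2, with both controls between these values.

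The 2 structural genes differed in opposite directions. Krt20 encodes a keratin of differentiated villus and surface cells. It was at 0.32 and 0.15 in the control and at 0.49 and 1.00 in the knockout, so that both knockout arrays were higher. Its difference was 0.51 (95% interval -0.13 to 1.15; limma adjusted p = 0.397 with the slide as a block), and was 0.77 without knockout 1 and 0.25 without knockout 2. Vil1 encodes villin, which bundles actin in microvilli. It was at 1.58 and 1.85 in the control and at 1.12 and 1.82 in the knockout, and knockout 1 stood below the other 3 arrays. The difference was -0.25 (95% interval -0.97 to 0.47), and 0.10 without knockout 1.

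The lipid-handling genes had a median difference of 0.26, beside 0.02 over all genes. Of the 10, 9 lay above 0 and Mttp below, beside 13483 of all 24866 genes above 0, and 0 of the 10 passed the test. Slide 1 alone gave a median of 0.13 and slide 2 alone 0.26. Both knockout arrays were above both controls for Apoa1, Apoa4, Apob, Dgat1 and Rbp2, 5 of 10 beside 14.5% of all genes. Dgat1 among them differed by only 0.06. The promoters of Apoa4 and Rbp2 are shown as those of the gene of this group with the largest difference and of the window with the most HNF4 matches.

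Apoa4 promoter (chr9:46240594-46240893, plus strand): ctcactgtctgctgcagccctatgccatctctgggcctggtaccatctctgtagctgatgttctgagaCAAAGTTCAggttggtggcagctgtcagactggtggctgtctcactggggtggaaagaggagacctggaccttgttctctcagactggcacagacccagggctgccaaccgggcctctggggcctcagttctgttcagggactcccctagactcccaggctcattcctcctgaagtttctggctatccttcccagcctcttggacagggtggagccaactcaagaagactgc

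Rbp2 promoter (chr9:98490287-98490586, plus strand): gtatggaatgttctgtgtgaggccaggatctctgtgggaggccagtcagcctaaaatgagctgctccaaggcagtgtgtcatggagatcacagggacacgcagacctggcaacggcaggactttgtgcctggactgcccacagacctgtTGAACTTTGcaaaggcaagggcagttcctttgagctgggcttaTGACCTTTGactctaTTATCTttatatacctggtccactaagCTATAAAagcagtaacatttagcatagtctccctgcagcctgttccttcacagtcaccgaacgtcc

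The Apoa4 window held 1 match, CAAAGTTCA, to the HNF4 letters. The Rbp2 window held 4 matches: TGAACTTTG and TGACCTTTG to the HNF4 letters, TTATCT to the GATA letters and CTATAAA to the CDX letters, each on the opposite strand.

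Apoa4 encodes an apolipoprotein that enterocytes make in response to fat and place on chylomicrons. Its level was -2.12 in control 1, -1.53 in control 2, -1.09 in knockout 1 and -0.95 in knockout 2. Both knockout arrays were higher than both controls, and the control arrays were farther apart than the knockout arrays. The difference was 0.80 ± 0.31 (SE; 95% interval 0.03 to 1.58), or 1.74-fold, and did not pass the test (limma adjusted p = 0.281 with the slide as a block). It was 0.51 without control 1 and 0.49 after normexp correction.

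Apoa1, the main protein of high-density lipoprotein, lay at -2.15 on both control arrays and at -1.77 and -1.83 in the knockout, a difference of 0.35. Apob, the structural protein of the chylomicron, was at 0.59 and 0.71 in the control and at 0.74 and 0.91 in the knockout, a difference of 0.18. In Apoa1 and Apob the difference between groups was larger than the gap between the arrays of either group, and both 95% intervals included 0. Apoc3, an inhibitor of lipoprotein lipase, differed by 0.09 and its groups overlapped. Mttp, the transfer protein that loads lipid onto the Apob protein, was at 1.16 and 1.35 in the control and at 0.91 and 1.23 in the knockout. Knockout 1 was the lowest array and the groups overlapped; the difference was -0.19 (95% interval -0.73 to 0.36).

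The enzymes that rebuild triglyceride had small differences. Dgat1, the acyltransferase of the final step, differed by 0.06, and its 95% interval ran from -0.40 to 0.51. Dgat2, a second enzyme of that step, differed by 0.19 and Mogat2, which acylates monoglyceride, by 0.33. The 2 slides disagreed in sign for both: Dgat2 was at -0.07 on slide 1 and 0.46 on slide 2, and Mogat2 at 0.78 and -0.12.

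Rbp2, the cytosolic carrier of retinol in enterocytes, was at -1.05 and -1.62 in the control and at -0.96 and -0.99 in the knockout. Control 2 stood apart below the other 3 arrays, and the difference of 0.36 was 0.07 without it. Npc1l1, the cholesterol importer of the brush border, was at -0.71 and -2.48 in the control and at -0.39 and -1.80 in the knockout. Both slide 2 arrays lay far below both slide 1 arrays, and within each slide the knockout was higher, by 0.32 and 0.68. The 95% interval was -1.29 to 2.29 without the slide term and 0.01 to 0.99 with it (limma adjusted p = 0.403).

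Of the 6 transporters, 4 were tested. Their median difference was 0.24, with 3 of the 4 above 0, and it was 0.09 after normexp correction, 0.10 without control 1 and 0.41 with all 6 and no filter on dim probes. Slc2a2, the glucose and fructose carrier GLUT2, was at -4.02 and -3.91 in the control and at -3.39 and -3.69 in the knockout. Both knockout arrays were higher; the difference was 0.43 (95% interval -0.59 to 1.45), and 0.14 after normexp correction. Slc7a9, the light chain of the transporter for cystine and basic amino acids, was at 0.10 and -0.09 in the control and at -0.25 and -0.35 in the knockout. Both knockout arrays were lower; the difference was -0.30 (95% interval -0.86 to 0.26; limma adjusted p = 0.450 with the slide as a block).

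Slc5a1, the sodium-dependent glucose importer SGLT1, differed by 0.10, with the control at -0.25 and -0.26 and the knockout at -0.22 and -0.10. Slc2a5, the fructose carrier GLUT5, differed by 0.39, but by 0.82 on slide 1 and -0.03 on slide 2. The peptide transporter Slc15a1 and the neutral amino acid transporter Slc6a19 were not well above background on any of the 4 arrays, and no fold is given for them.

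Khk encodes ketohexokinase, which phosphorylates fructose in the cytosol of the enterocyte. Its promoter is shown because Khk had the smallest adjusted p of the 32 genes with the slide as a block. Capitals mark TGATCTTTG, a match to the HNF4 letters on the opposite strand, and GTTAAT, the HNF1 letters.

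Khk promoter (chr5:30921309-30921608, plus strand): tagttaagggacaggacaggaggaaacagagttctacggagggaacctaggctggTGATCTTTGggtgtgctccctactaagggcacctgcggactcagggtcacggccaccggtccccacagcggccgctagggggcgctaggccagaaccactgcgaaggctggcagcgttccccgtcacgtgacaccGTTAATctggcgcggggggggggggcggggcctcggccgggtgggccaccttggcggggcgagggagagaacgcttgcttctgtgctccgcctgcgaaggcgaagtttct

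Khk was at 2.29 in control 1, 2.89 in control 2, 2.82 in knockout 1 and 3.33 in knockout 2. The slide 2 array was higher in both groups, so control 2 lay above knockout 1 and the groups overlapped. Within each slide the knockout was higher, by 0.53 on slide 1 and 0.44 on slide 2. The difference was 0.49, with a 95% interval of -0.25 to 1.22 without the slide term and 0.26 to 0.71 with it, and it did not pass the test (limma adjusted p = 0.176 with the slide as a block). Leaving out control 1 gave 0.19, control 2 gave 0.79, knockout 1 gave 0.74 and knockout 2 gave 0.23. Cyp3a11, a cytochrome P450 of drug metabolism, had 2 probes, and neither reached the required level in any group, so it was not tested.

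The 4 regulators had small differences, of at most 0.10 in size. Their median difference was -0.01 and 0.0038 with the arrays scaled to their medians, so its sign has no weight. The median size of their differences was 0.02, while their 2 control arrays differed by a median of 0.42 and their 2 knockout arrays by 0.37. All 4 had 95% intervals within 1 log2 unit of 0 in both fits.

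Hnf4a, a nuclear receptor that activates many absorptive genes, was at 3.61 and 3.95 in the control and at 3.80 and 3.97 in the knockout. The groups overlapped and the difference was 0.10 (95% interval -0.41 to 0.62). Cdx2, a homeobox factor that sets intestinal identity, was at 1.19 and 1.13 in the control and at 1.02 and 1.29 in the knockout. The knockout arrays enclosed the control arrays, and the difference was -0.004 (95% interval -0.52 to 0.51), which turned to 0.009 with the arrays scaled to their medians. Cdx1, its relative, was at 3.10 and 3.60 in the control and at 3.09 and 3.56 in the knockout, a difference of -0.03 (95% interval -0.69 to 0.64). Gata4, a zinc-finger factor of the proximal small intestine, was at 3.02 and 2.25 in the control and at 2.98 and 2.26 in the knockout, a difference of -0.01 (95% interval -0.91 to 0.88). For Cdx1 and Gata4 the arrays of a slide nearly coincided and the slides differed.

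**Figure D2:**
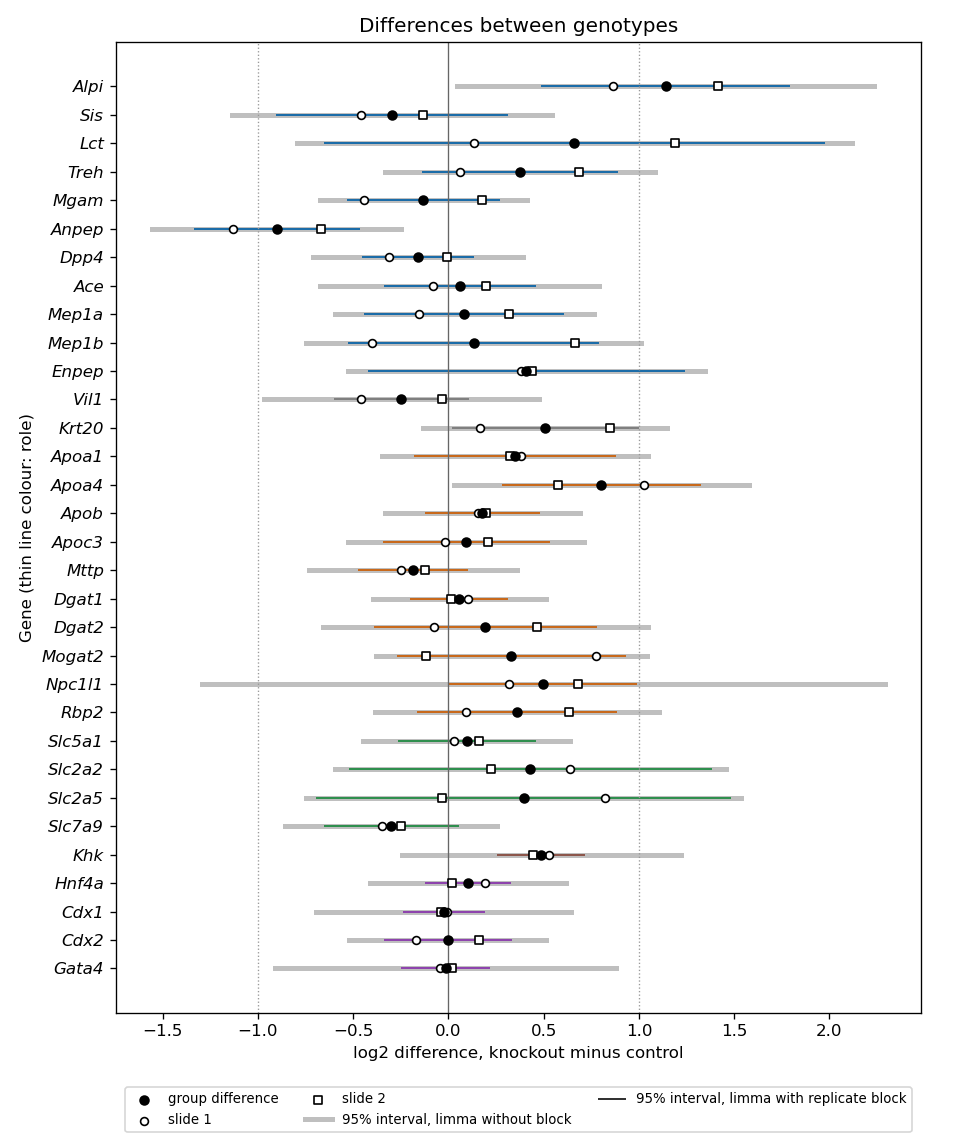
Difference of each tested gene, knockout minus control, in log2 units (horizontal axis; dotted lines at 1 unit either side of 0). Filled circles are group differences, open circles and squares those within slide 1 and slide 2, grey bars the 95% interval of limma without the slide term, and thin coloured lines that with the slide as a block. Alpi at 1.14 and Anpep at -0.90 lie farthest from 0, and Cdx2, Gata4 and Cdx1 closest to it.

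Set by array, 12 of 32 genes (37.5%) had both knockout arrays above both controls, beside 14.5% of all genes. Lct, which entered the test only through the knockout, is 1 of the 12. Both knockout arrays were below both controls for 2 genes, Anpep and Slc7a9, beside 11.5% of all genes. The difference exceeded the gap between arrays in both groups for 8 genes, beside 16.6% of all genes: Alpi, Anpep, Enpep, Apoa1, Apoa4, Apob, Slc2a2 and Slc7a9. By slide, 15 genes were higher in the knockout on both slides, beside 33.9% of all genes, and 7 were lower on both, beside 27.3%. The 7 were Anpep, Dpp4, Sis, Vil1, Mttp, Slc7a9 and Cdx1. The 15 were the 12 above with Hnf4a, Khk and Npc1l1.

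**Figure D3:**
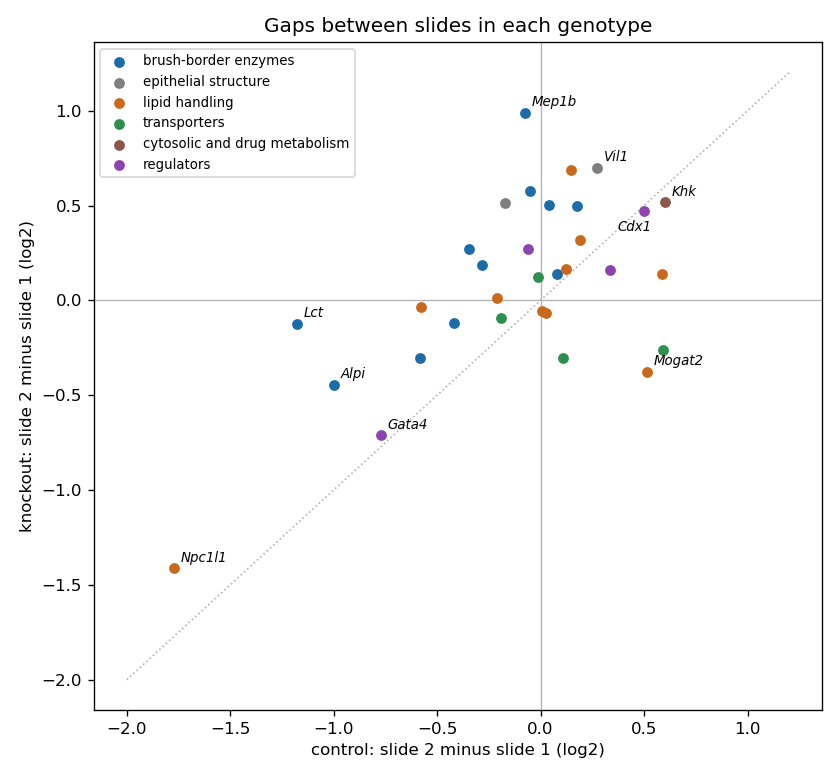
Gap between slides, slide 2 minus slide 1 in log2 units, in the control (horizontal axis) and in the knockout (vertical axis) for each tested gene, coloured by role; the dotted line marks equal gaps. Npc1l1, Gata4, Khk and Cdx1 lie near the line, away from 0, while Mep1b and Mogat2 lie off it.

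Some of these genes followed the slide more than the genotype, though by these counts a smaller share than among all genes. With the genotype in the fit, Cdx1 and Khk were called higher on slide 2 by limma, 2 of 32 (6.25%) beside 11.6% of all genes. Gata4 and Npc1l1 were called lower, 2 of 32 (6.25%) beside 6.93%. Their differences between slides were 0.48 for Cdx1, 0.56 for Khk, -0.74 for Gata4 and -1.59 for Npc1l1 (adjusted p = 0.0207, 0.0180, 0.0108 and 0.0108). The mean gap between slides was larger than the knockout difference for 14 of 32 genes (43.8%), beside 67.3% of all genes. Across the 32 genes, the slide gap in the control and that in the knockout had a Pearson r of 0.60, beside 0.56 over all genes. These are descriptions across genes, which are not independent replicates. Slide, replicate number and scan went together, and what about the slide these gaps follow was not tested.

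Among the 28 genes with a promoter window in RefSeq's GRCm38.p6 table (31 windows), matches to 5 short motifs were counted on both strands. The HNF4 letters CAAAGNNCA were found for 10 of 28 genes (35.7%), beside 7.27% of 27025 genes with a window, or 6.36% of 32851 windows. The 10 were Ace, Alpi, Apoa4, Apob, Cyp3a11, Khk, Rbp2, Slc5a1, Slc7a9 and Treh. The CDX letters TTTATNG, which overlap those of a TATA box, were found for 7 genes (25%, beside 12.5% of all genes), and the GATA letters AGATAA for 7 (beside 12.7%). The HNF1 letters GTTAAT were found for 5 genes (17.9%, beside 8.24%). The interferon response letters GAAANNGAA were found for Alpi, Dpp4 and Treh, 3 of 28 (10.7%, beside 9.76%). In the windows printed here the matches of different motifs shared 0 bases. Of the tested genes, the 9 with an HNF4 match had a median difference of 0.36 and the 16 without one 0.09. With and without a match, these medians were 0.18 and 0.23 for the CDX letters and 0.10 and 0.26 for the GATA letters. They were 0.10 and 0.26 for the HNF1 letters, and 0.37 and 0.14 for the interferon response letters. These are descriptions without a test. A match is a run of letters, not a shown binding site. No entry was matched for Mep1b, Apoc3, Dgat1, Dgat2, Mogat2, Cdx1 and Gata4.

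Other gene lists of the same programme had medians around 0 too, with single genes spread widely about them. Of 129 further enterocyte genes in 5 lists, 114 were tested, and 0 were called in either direction with or without the slide as a block. Single differences ran from -1.28 among the brush-border genes to 1.06 among the regulators, and their median was 0.05. By list, it was 0.02 for 19 other brush-border genes, 0.02 for 21 of lipid and retinoid handling, -0.03 for 24 solute transporters, 0.13 for 25 of carbohydrate and xenobiotic metabolism and 0.05 for 25 regulators. The median of 0.26 in the 10 lipid-handling genes above was thus not met in the longer lipid list.

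In the longer lipid list, Fabp2, the intestinal fatty acid-binding protein, was at 5.35 and 5.59 in the control and at 5.93 and 5.99 in the knockout, a difference of 0.49. Both knockout arrays were higher (limma adjusted p = 0.123 with the slide as a block). Creb3l3, a transcription factor of lipid metabolism, differed by -0.93 and Acsl3, an acyl-CoA synthetase, by 0.35. Creb3l3 alone of these 3 lay below 0. It was well above background on 1 of 2 knockout arrays, so it entered the test only through the control. Among brush-border genes, the peptidase-like Naaladl1 differed by 0.73, the vitamin B12 receptor subunit Amn by 0.42 and the dipeptidase Cndp2 by 0.62, with a second Cndp2 probe at -0.06. Among transporters, the nucleoside carrier Slc28a2 differed by 0.57, the chloride exchanger Slc26a3 by -0.56 and the folate carrier Slc46a1 by -0.63. For each of these 6 genes the groups did not overlap, beside 14.5% of all genes apart and higher and 11.5% apart and lower. Picking genes by small p and a shared sign favours such separation, so it adds no support. Among metabolic genes the alcohol dehydrogenase Adh6a differed by 0.97, the monoamine oxidase Maoa by 0.58 and the sulfotransferase Sult1b1 by 0.83. Among regulators the nuclear receptor Ppara differed by 0.68, the Krüppel-like factor Klf15 by -0.72 and the bile acid receptor Nr1h4 by -0.62. These 15 genes have the smallest unadjusted p of each list among genes whose sign was shared by the slides, and 0 of them passed the adjusted test.

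**Figure D4:**
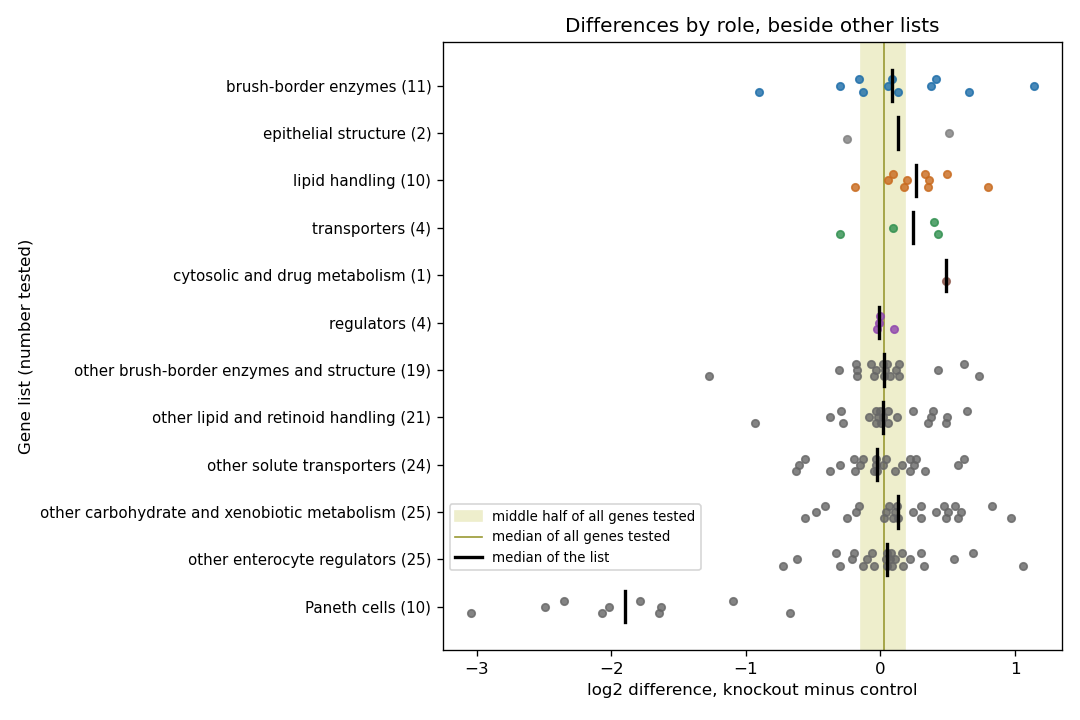
Difference of each gene, knockout minus control in log2 units (horizontal axis), by role and for the other enterocyte lists and the Paneth cell list (number tested in brackets). Points are genes, black bars list medians, the shaded band the middle 50% of all genes tested and the thin line their median of 0.02. The enterocyte lists with more than 1 tested gene centre between -0.03 and 0.26, and the Paneth list at -1.90. Khk, the 1 tested gene of cytosolic and drug metabolism, lies at 0.49.

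The genes whose levels lay nearest to the median of the 32 genes over the 4 arrays, out of the 114 others, were Myo1a, Aqp11 and Klf4, by each gene's brightest probe. That median, with each gene centred on its own mean, was -0.03 in control 1, -0.11 in control 2, -0.01 in knockout 1 and 0.13 in knockout 2. The Euclidean distances from it were 0.098, 0.109 and 0.135. The pattern is nearly flat, so small distances favour genes that changed little. From control 1 to knockout 1, Myo1a fell from 0.008 to -0.048 and Klf4 from 0.074 to -0.088, where the median rose slightly. Aqp11 rose there, from -0.093 to -0.041. Myo1a encodes a brush-border myosin, Aqp11 an aquaporin (its second probe differed by -0.06 where the first differed by 0.12) and Klf4 a transcription factor of differentiated epithelium.

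Markers of other cells and of gut regions were read on the same arrays. Of 15 listed stem cell markers 14 were tested, with a median difference of 0.08 and 0 called. The 12 proliferation genes had a median of 0.05, also with 0 called. Paneth cell markers differed by a median of -1.90 over 10 tested of 13 listed, and on each slide all 10 had the knockout below the control. With the slide as a block 7 of the 10 were called lower: Ang4, Clps, Defa26, Defa3, Itln1, Lyz1 and Pnliprp2. Their summed level, in units of the array's 75th percentile, was 481 and 612 on the control arrays, against 127 and 208 on those of the knockout. The summed level of the 32 enterocyte genes was 76.8 and 78.6 on the control arrays, against 74.9 and 85.4. Such sums weigh the brightest probes most, here among them the regulators Hnf4a and Cdx1. The sum of the enterocyte genes is therefore no measure of enterocyte content. In bulk samples fewer cells of a type and less RNA per cell cannot be told apart. The part of Paneth cell RNA in the differences of the enterocyte genes was not tested.

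Enteroendocrine markers differed by a median of -0.49 (10 tested of 13, summed level 8.55 and 12.6 on control arrays against 5.01 and 8.13) and goblet markers by -0.33 (9 of 10; 145 and 149 against 113 and 157), with 0 called in either list. Tuft markers differed by a median of 0.04 (8 of 10), immune markers by 0.19 (13 of 15) and stromal and endothelial markers by 0.14 (4 of 10). In the immune list 10 genes lay above 0 and 3 below. Lyz2 in it, a lysozyme gene listed here as a myeloid marker, was called lower with the slide as a block (limma adjusted p = 0.00828). Which cells the Lyz2 signal came from was not tested. Lyz2 was at 2.30 ± 0.37 in control samples and -0.34 ± 0.62 in knockout samples (SD, n = 2). Gzma in the same list differed by 1.06 and was not called (limma adjusted p = 0.132 with the slide as a block). In the list drawn up as ileal, 5 genes were tested, with a median difference of -0.08, 2 above 0 and 3 below. Guca2b in that list, the peptide uroguanylin, was called lower with the slide as a block (limma adjusted p = 0.0277). It was at 2.36 ± 0.02 in control samples and 0.66 ± 0.37 in knockout samples (SD, n = 2). Whether Guca2b marks the ileum was not tested. It was in none of the other enterocyte lists, so their medians do not cover it. Of 6 colonic genes 0 were called. Cldn8, a claudin among them, was not well above background on either control array and entered the test only through the knockout, so its difference is not given. How region, other cell types and the enterocyte genes relate on these arrays was not tested.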

How the data were processed

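RNA was amplified and labelled with Cy3, per the labels' protocols, and each of the 4 samples was hybridised to 1 array. Values in the deposited array files are intensity per spot, linear and already background-corrected; per the file headers they come from Agilent Feature Extraction 12.0.3.1, and per the submitters' processing notes from 11.5.1.1. The deposited series table holds the same intensity times 1 constant per array, from 5.60 to 6.68 (column medians 249, 231, 239 and 223); the target of that scaling is unknown.

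Control spots and outlier spots (111 to 172 per array) were left out, spots of a probe were averaged, and the deposited intensity was put on the log2 scale minus each array's 75th percentile over the remaining spots. A probe entered the tests if both arrays of a group had it well above background (35422 of 55681 probes). Accessions were matched to RefSeq's GRCm38.p6 gene table, which named 28331 probes, and each gene took its brightest probe over the 4 arrays. Where a gene of the set had several probes (Mgam, Apob, Apoc3), they lay on the same side.

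Differences were tested with limma (3.58.1, R 4.3.3), using trended, moderated variances and Benjamini-Hochberg adjustment at 0.05 over 24866 genes, without a slide term and, as an alternative, with the slide, which is also the replicate number, as a block. Arrays of 1 slide deviated together: over all genes the gap between slides in the control and that in the knockout had a Pearson r of 0.56. The 35 genes, the other lists and the tests were chosen with earlier results of these data known. Values per array are given for the largest and smallest difference of each role, the 3 brightest probes, Hnf4a and Cdx2, and in addition for genes picked after their values were seen. Up to 3 genes per enterocyte list and up to 2 per other list were named by unadjusted p. Alternatives covered the slide block, scaling, background correction, the authors' table, the filter, the probe rule, outliers, the variance trend and each array left out.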

Additional observations from a re-analysis of the deposited data

How the results depend on the processing

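No gene of the set was called in either direction under any alternative run, the replicate block and each array left out included. With the replicate block, 82 genes in all were lower and 8 higher; without the variance trend that fit called 0. Leaving out 1 array gave 9 to 88 lower genes (18 without control 1, 71 without control 2, 9 without knockout 1, 88 without knockout 2) and 0 to 3 higher ones, where a lone array is assumed to vary like the other group. The median of the 32 genes ran from 0.08 to 0.18 with 1 array left out and was 0.07 after normexp correction (offset 50). That of lipid handling was 0.16 after normexp correction and 0.15 to 0.24 with 1 array left out, and that of the regulators -0.059 to 0.16. That of brush-border enzymes ran from -0.06 to 0.22 and that of transporters from 0.10 to 0.29. The difference of Cdx2 turned to 0.0090 under median scaling. With 1 array left out, differences changed sign within these ranges: Mgam -0.31 to 0.040, Dpp4 -0.37 to 0.050, Ace -0.23 to 0.35, Mep1a -0.060 to 0.22, Mep1b -0.36 to 0.63, Vil1 -0.60 to 0.10, Apoc3 -0.012 to 0.20, Dgat2 -0.15 to 0.54, Npc1l1 -0.39 to 1.38, Hnf4a -0.065 to 0.27, Cdx1 -0.28 to 0.22, Cdx2 -0.14 to 0.13 and Gata4 -0.40 to 0.37. Others kept their sign but moved by over 1.5 times, among them Sis (-0.55 to -0.05), Mttp (-0.34 to -0.03), Mogat2 (0.07 to 0.59) and Slc2a5 (0.10 to 0.69). Each of these ranges reflects fewer arrays. The percentile over probes, chosen after seeing the data, changed no call. The median over all genes stayed between -0.03 and 0.08. Normexp was run on median rather than mean spot signals, and its offset draws differences of dim probes toward 0 by construction. Depth does not apply to arrays; dim probes such as Lct, Slc2a2, Slc2a5 and Enpep carry little signal over background.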
